A study of Mus musculus with 10 samples.

Results

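Interferon-stimulated genes are the genes that cells switch on after an interferon, a secreted antiviral signal, binds its receptor. A list of 36 such mouse genes was followed here in normal lung and in squamous cell carcinoma (SCC) of the lung. The genes were chosen by symbol from a list of well-known members of the response, with earlier results of these data known. All 36 were found among the 24421 genes of the count table. Total RNA had been sequenced from 5 libraries of normal lung of untreated NIH Swiss mice and from 5 libraries of lung SCC of NIH Swiss mice given NTCU, a nitrosourea carcinogen. The genotype is given as wild type for both groups, and both were laser-captured from formalin-fixed, paraffin-embedded sections. The sources used here state no age, sex or number of animals. Because no label links a library to an animal, p-values reflect the spread among libraries, part of which may be technical, and p-values would be too small wherever regions came from the same animal. Libraries are called normal 1 to normal 5 and SCC 1 to SCC 5, and SCC 2 and SCC 5 carry the labels D39 and E57.

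In the type I response, interferon alpha or beta binds the Ifnar1 and Ifnar2 receptor chains, and the kinases Jak1 and Tyk2 bound to these chains become active. Signalling leads to the complex ISGF3, of which Stat2 and Irf9 are subunits and which binds interferon-stimulated response elements in the promoters of its target genes. Among the products are sensors of foreign nucleic acid, enzymes that block translation or degrade RNA, proteins that trap or exclude virus particles, and factors that amplify or damp the response. In lung, alveolar macrophages, epithelial cells and plasmacytoid dendritic cells are known producers of interferon during viral infection.

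Letters that resemble the response element stand in the promoters of many of these genes, and examples are printed because this feature does not rest on the RNA counts. Promoter windows from 250 bases before to 50 bases after the start site were taken from RefSeq (GRCm38.p6) and were found for 27 of the 36 genes. The motif searched for consists of GAAA, any 2 bases and GAAA again, on either strand. It was present in a window of 15 of the 27 genes, 55.6%, against 3.99% of 27025 genes in the promoter table. In the stretches below, written 5′ to 3′ along the strand of the gene, capitals mark matches to this motif or to its reverse complement (TTTC, any 2 bases and TTTC). The stretch of Isg15 lies on the minus strand at chr4:156200850-156200921, that of Oas3 on the minus strand at chr5:120777700-120777759, and that of Eif2ak2 on the minus strand at chr17:78882535-78882564. The stretch of Ifit3 lies on the plus strand at chr19:34583348-34583441 and that of Ifit1 on the plus strand at chr19:34640760-34640838.
Isg15: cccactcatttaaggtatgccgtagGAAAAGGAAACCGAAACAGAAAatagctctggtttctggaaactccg
Oas3: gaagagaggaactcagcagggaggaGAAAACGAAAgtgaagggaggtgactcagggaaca
Eif2ak2: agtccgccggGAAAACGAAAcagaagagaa
Ifit3: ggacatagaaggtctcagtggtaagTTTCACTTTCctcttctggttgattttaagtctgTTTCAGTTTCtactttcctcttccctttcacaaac
Ifit1: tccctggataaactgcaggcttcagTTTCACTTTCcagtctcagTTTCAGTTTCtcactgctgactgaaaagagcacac
Isg15 holds 3 overlapping matches, Ifit3 and Ifit1 hold 2 each, and Oas3 and Eif2ak2 hold 1 each. A match is a description of these letters and not a measured binding site. The motif was in the window of 3 of the 5 genes with a window that were higher in SCC, of the 1 gene that was lower, and of 10 of the 20 tested genes that did not pass the test.

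Total counts per library ran from 1004105 to 6817106, so that 1 count was worth between 0.147 and 0.996 CPM, the count scaled to the library's total. Of 6 squamous and basal cell markers, 6 were higher in SCC, with summed levels of 1.07 to 7.55 CPM in normal lung and 721 to 5230 CPM in SCC. The 6 alveolar type 2 genes and the 5 endothelial genes were lower. Counts were also found on olfactory, vomeronasal and taste receptor genes, whose known place is sensory tissue, at 0.0433 to 0.208 CPM per kb of coding length in normal lung. In SCC 1 to SCC 5 this receptor signal reached 3.25, 0.597, 3.3, 3.51 and 0.416 CPM per kb, respectively. SCC 1, SCC 3 and SCC 4 therefore stand apart, and results are given with SCC 2 and SCC 5 alone as well. Where a background is named below without a length, it is the receptor signal of the library, per kb of coding length, times the transcript length of the gene. It is larger than a background by coding length: for Cmpk2 it was 78.5% of the SCC counts, against 32.9% by coding length. It can also exceed the counts, as for Cmpk2 in SCC 1, SCC 3 and SCC 4 (109%).

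Of the 36 genes, 34 had enough counts to pass the filter and be tested. In SCC, 9 of them were higher (26.5%, against 12.5% of all 13203 genes tested) and 1 was lower (2.94%, against 8.68% of all genes tested) by edgeR's quasi-likelihood test, with Benjamini-Hochberg adjustment over all genes tested and a threshold of 0.05. The 9 were Irf7, Zbp1, Dhx58, Isg15, Oas2, Oas3, Oasl1, Eif2ak2 and Mx1, and the gene that was lower was Ifit3. The other 24 tested genes, 13 with a positive and 11 with a negative estimate, lay between -1.63 and 1.84 on the log2 scale and did not pass. The median log2 fold change of the 34 genes was 0.38, beside 0.07 for all genes tested. With no filter on low counts the order was the other way, at 0.08 for the 36 genes beside 0.71 for all 22919 genes, and 9 of the 36 (25%, against 23.9% of all genes) were higher and 2 lower (9.04% of all genes). With limma-voom 11 of the 34 were higher (24.7% of all genes) and 4 lower (20.9%). At an unadjusted p under 0.05 there were 15 of the 34 genes, and the share of all genes at that threshold was not computed.

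For 9 of the 34 genes the CPM ranges of the groups stood clear of each other: SCC lay above in 8 (23.5%, against 8.81% of all genes tested) and below in 1 (2.94%, against 5.77%). The 8 were Zbp1, Dhx58, Oas2, Oas3, Oasl1, Eif2ak2, Mx1 and Ddx60. In captured tissue, a lower level may mean fewer cells of a type or less RNA per cell, which cannot be told apart, and the same holds for a higher level.

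**Figure D1:**
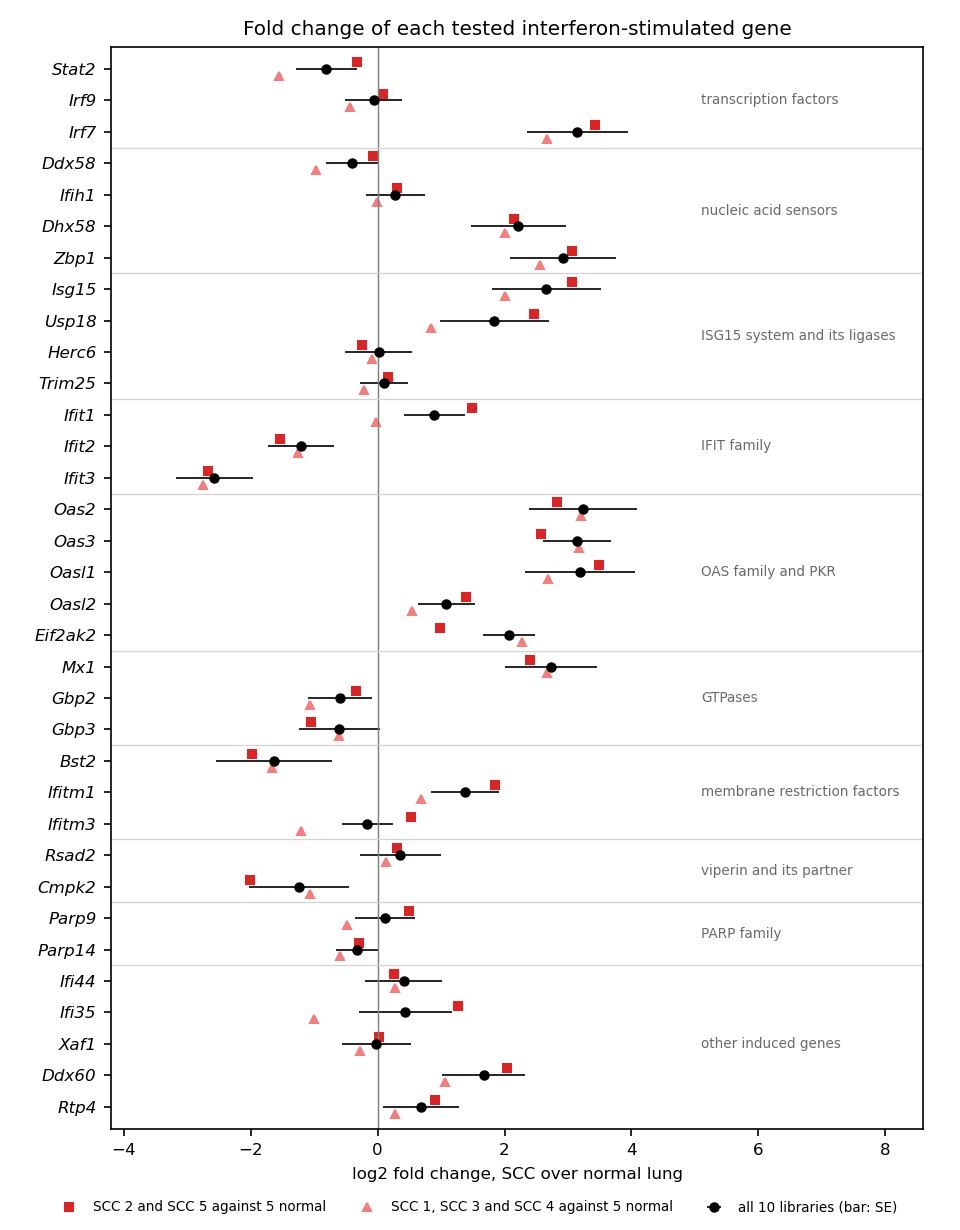
Log2 fold change of SCC over normal lung (x axis) for the 34 tested genes, grouped by role (y axis), with all 10 libraries (black, bar: SE) and with SCC 2 and SCC 5 alone (red squares) or SCC 1, SCC 3 and SCC 4 alone (pink triangles) against the 5 normal libraries. Irf7, Zbp1, Dhx58, Isg15, Oas2, Oas3, Oasl1 and Mx1 sit at 2.0 or above in all 3 series, Eif2ak2 drops from 2.07 to 0.98 with SCC 2 and SCC 5 alone, and Ifit3 sits at -2.57.

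Before fold changes, the levels of the genes themselves differed widely. Ifitm3, a membrane protein that blocks entry of viruses from endosomes, had the highest mean level per kb of transcript in both groups, 207 CPM per kb in normal lung and 196 in SCC. Gbp2, Ifitm1, Trim25 and Ifit3 followed in normal lung at 23, 20.3, 20.2 and 19.6 CPM per kb. Of the 9 genes that were higher in SCC, 6 stood low in normal lung: Oas2 was at 0.513, Oasl1 at 0.842, Mx1 at 0.979, Oas3 at 1.01, Dhx58 at 1.22 and Zbp1 at 1.54 CPM per kb. Isg15 and Irf7 were at 3.45 and 3.71 CPM per kb. Eif2ak2 was more abundant, at 15.1 CPM per kb in normal lung and 69.1 in SCC, the latter second to Ifitm3 among the 36 genes.

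Of the 3 transcription factors, Irf7 rose and the ISGF3 subunits Stat2 and Irf9 did not pass the test. Irf7 (chr7:141262706-141266481, minus strand; gene positions are those of GENCODE M21 on mm10), the factor that amplifies transcription of interferon alpha genes, was at 4.65, 26, 2.2, 0 and 2.74 CPM in normal 1 to normal 5. In SCC 1 to SCC 5 it was at 116, 37.1, 33.6, 16.9 and 118 CPM. SCC 1 and SCC 5 were the highest, 4 of the 5 SCC libraries lay above every normal library, and SCC 4 lay below normal 2. For Irf7 the log2 fold change was 3.15 (SE 0.79, adjusted p = 0.00474, n = 5 each), 8.88-fold. With SCC 2 and SCC 5 alone it was 3.43 (SE 1.06, adjusted p = 0.0606). Exons of Irf7 overlap those of Phrf1 on the opposite strand, and the sources used here do not say whether counting used strand.

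Stat2 was at 35.8, 69, 45.2, 45.1 and 26.1 CPM in normal lung and at 11.3, 24.9, 33.6, 12 and 51.4 CPM in SCC 1 to SCC 5. The groups overlapped, with SCC 1, SCC 2 and SCC 4 below every normal library and SCC 5 within the normal range. Its log2 fold change was -0.81 (SE 0.48, adjusted p = 0.259), and it was -1.55 (adjusted p = 0.0182) with SCC 1, SCC 3 and SCC 4 alone and -0.32 (adjusted p = 0.803) with SCC 2 and SCC 5 alone. Irf9 ranged from 17.2 to 62.2 CPM in normal lung and from 27.9 to 43.7 CPM in SCC, with a log2 fold change of -0.06 (adjusted p = 0.941). Its exons overlap those of Rnf31 on the same strand.

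Of the 4 cytoplasmic sensors of nucleic acid, Zbp1 and Dhx58 rose, and the RNA helicases Ddx58 (RIG-I) and Ifih1 (MDA5) did not pass. Zbp1 (chr2:173206612-173218923, minus strand), a sensor of Z-form nucleic acid that can trigger cell death, was at 3.94, 8.2, 1.76, 0 and 1.37 CPM in normal lung. It was at 38.7, 16, 17.1, 12 and 36.7 CPM in SCC 1 to SCC 5. Every SCC library lay above every normal library, with SCC 1 and SCC 5 the highest. Its log2 fold change was 2.92 (SE 0.83, adjusted p = 0.0127), and 3.06 (SE 1.04, adjusted p = 0.0698) with SCC 2 and SCC 5 alone.

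Dhx58 (chr11:100694884-100704271, minus strand), the helicase LGP2 that tunes signalling by RIG-I and MDA5, was at 3.58, 2.05, 2.64, 2.31 and 4.12 CPM in normal lung. It was at 7.54, 14.6, 19.3, 18.9 and 13.9 CPM in SCC 1 to SCC 5, on 8 to 54 counts per library. All SCC libraries were higher than all normal ones, and SCC 1 was the lowest of them. Dhx58 had a log2 fold change of 2.22 (SE 0.75, adjusted p = 0.0363). The adjusted p rose above 0.05 when any 1 of the 5 normal libraries, SCC 3 or SCC 4 was left out, between 0.06 and 0.127, and with SCC 2 and SCC 5 alone it was 0.192 at a log2 fold change of 2.15. Estimated background amounted to 26% of the Dhx58 counts in SCC, and once it was subtracted the counts were too few for a test.

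Ddx58 was at 60.8, 20.5, 66.6, 40.9 and 44.6 CPM in normal lung and at 23.6, 61.2, 33.6, 34.9 and 36.3 CPM in SCC 1 to SCC 5. The SCC values lay within the normal range, and the log2 fold change was -0.4 (SE 0.42, adjusted p = 0.551). Ifih1 spread from 12.3 to 40.9 CPM in normal lung and from 28.3 to 34.9 CPM in SCC, with a log2 fold change of 0.28 (SE 0.47, adjusted p = 0.728).

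Isg15 rose, and the 3 other genes of its conjugation system did not pass. Isg15 (chr4:156199424-156200818, minus strand), a ubiquitin-like protein joined to other proteins after interferon, was at 1.43, 5.47, 3.52, 1.93 and 0.686 CPM in normal lung. In SCC 1 to SCC 5 it was at 18.9, 2.71, 13.2, 8.96 and 43.7 CPM, on 20, 10, 24, 9 and 107 counts. SCC 5 was the highest, and SCC 2 lay below normal 2 and normal 3. Isg15 had a log2 fold change of 2.66 (SE 0.86, adjusted p = 0.0271), with an adjusted p of 0.0675 at 3.07 with SCC 2 and SCC 5 alone. Without normal 1, normal 4 or normal 5 the adjusted p lay between 0.0618 and 0.072, and without SCC 5 the counts were too few for a test.

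Usp18, the protease that removes Isg15 and restrains receptor signalling, was at 2.15, 1.37, 9.39, 0.772 and 6.86 CPM in normal lung. It was at 0.943, 23.8, 18.2, 8.96 and 26.5 CPM in SCC 1 to SCC 5. SCC 1 had 1 count and lay among the lowest normal libraries, whereas SCC 2, SCC 3 and SCC 5 lay above all of them. Usp18 had a log2 fold change of 1.84 (SE 0.86, adjusted p = 0.135). The ligase Herc6 ranged from 6.86 to 35.6 CPM in normal lung and from 10.6 to 39.6 CPM in SCC (log2 fold change 0.02, adjusted p = 0.984). Trim25, a ligase that acts on RIG-I, ranged from 93 to 155 CPM and from 55 to 241 CPM, with SCC 1 the highest and SCC 3 the lowest of all 10 libraries (log2 fold change 0.1, adjusted p = 0.894). The sign of both estimates turned in several alternatives, and 23.8% of the 50-base stretches of Herc6 also occur in the gene model Gm45193.

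The 2′-5′-oligoadenylate synthetase (OAS) family and the kinase PKR held the most genes that rose. Of 5 tested genes, 4 were higher in SCC, and the median log2 fold change of the 5 was 3.14. OAS enzymes make the signal that activates RNase L, which degrades RNA. Oas3 (chr5:120753098-120777661, minus strand) was at 3.22, 3.42, 8.8, 4.24 and 4.12 CPM in normal lung and at 49, 36.8, 62.8, 60.8 and 26.9 CPM in SCC 1 to SCC 5. The lowest SCC library lay well above the highest normal one. Oas3 had a log2 fold change of 3.14 (SE 0.54, adjusted p = 0.000133), 8.83-fold, and one of 2.57 (SE 0.8, adjusted p = 0.0442) with SCC 2 and SCC 5 alone.

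Oas2 (chr5:120730333-120749853, minus strand), its neighbour on chromosome 5, was at 0.358, 0, 7.19, 1.93 and 0.686 CPM in normal lung. It was at 28.3, 10.8, 35.2, 18.9 and 23.3 CPM in SCC 1 to SCC 5. No SCC library overlapped the normal range, in which normal 3 was the highest. Oas2 had a log2 fold change of 3.24 (SE 0.85, adjusted p = 0.00707), and 2.82 (SE 1.15, adjusted p = 0.137) with SCC 2 and SCC 5 alone. Estimated background made up 30.6% of the Oas2 counts in SCC, and after it was subtracted the log2 fold change was 3.25 with an adjusted p of 0.0516.

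Oasl1 (chr5:114923240-114937915, plus strand), an OAS-like protein known to restrain translation of Irf7, was at 3.22, 0, 0.733, 3.86 and 1.37 CPM in normal lung. It was at 8.48, 12.2, 12.7, 26.9 and 33.5 CPM in SCC 1 to SCC 5. All SCC libraries were above all normal ones, with SCC 5 the highest. For Oasl1 the log2 fold change was 3.19 (SE 0.87, adjusted p = 0.00914), and 3.49 (SE 1.05, adjusted p = 0.0371) with SCC 2 and SCC 5 alone. Oasl1 and Oas3 were the 2 genes that were called higher with SCC 2 and SCC 5 alone, where 4.14% of 14305 genes were called higher. Too few Oasl1 counts remained for a test once background was subtracted.

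Oasl2 was at 21.1, 10.9, 28.9, 33.6 and 38.4 CPM in normal lung and at 67.9, 46.9, 57.2, 25.9 and 103 CPM in SCC 1 to SCC 5. SCC 4 lay within the normal range and the other 4 above it. A log2 fold change of 1.08 (SE 0.45, adjusted p = 0.0955) did not pass, and it passed with upper-quartile scaling (adjusted p = 0.044) and with DESeq2 (adjusted p = 0.0476). Oas1a had too few counts to pass the filter, at 3.22, 0.684, 1.17, 0 and 0.686 CPM in normal lung and 8.48, 1.35, 5.5, 11 and 38 CPM in SCC, where 93 of its counts came from SCC 5. Of its 50-base stretches, 57.6% also occur in Oas1g, so reads could be split between these genes. The sum of both was at 5.01, 0.684, 1.47, 0 and 0.686 CPM in normal lung and at 15.1, 3.25, 12.7, 12 and 40.8 CPM in SCC. The log2 fold change of the sum was 3.3 (SE 0.95, adjusted p = 0.0136), with no background subtracted. Estimated background was 23.9% of the Oas1a counts and 91.5% of the Oas1g counts in SCC. In SCC 1, SCC 3 and SCC 4 it was 81.5% for Oas1a and 122% for Oas1g. Oas1a by itself was at 3.03 (SE 1.03, adjusted p = 0.0165) with no filter and at 3.4 (SE 1.03, adjusted p = 0.0121) with a filter of 1 CPM in 5 libraries. It was also called higher when 1 normal library or SCC 2 was left out, but there it passed the filter through its SCC counts. Without SCC 1, SCC 3, SCC 4 or SCC 5 it did not pass the filter and was not tested, so its dependence on single libraries is not known.

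Eif2ak2 (chr17:78852564-78882573, minus strand) encodes PKR, the kinase that stops translation when it binds double-stranded RNA. It was at 56.9, 57.4, 76.7, 50.5 and 83.7 CPM in normal lung and at 282, 119, 487, 443 and 159 CPM in SCC 1 to SCC 5. All SCC libraries were above all normal ones, and the SCC libraries divided, with SCC 1, SCC 3 and SCC 4 at a mean of 404 CPM and SCC 2 and SCC 5 at 139. Eif2ak2 had a log2 fold change of 2.07 (SE 0.41, adjusted p = 0.000587), 4.21-fold. With SCC 2 and SCC 5 alone it was 0.98 (SE 0.38, adjusted p = 0.114), and with SCC 1, SCC 3 and SCC 4 alone 2.27 (adjusted p = 3.97e-06). SCC 1, SCC 3 and SCC 4 are the libraries of high receptor signal, while estimated background was 2.84% of the Eif2ak2 counts in SCC and its subtraction gave 2.64 (adjusted p = 0.000794).

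**Figure D2:**
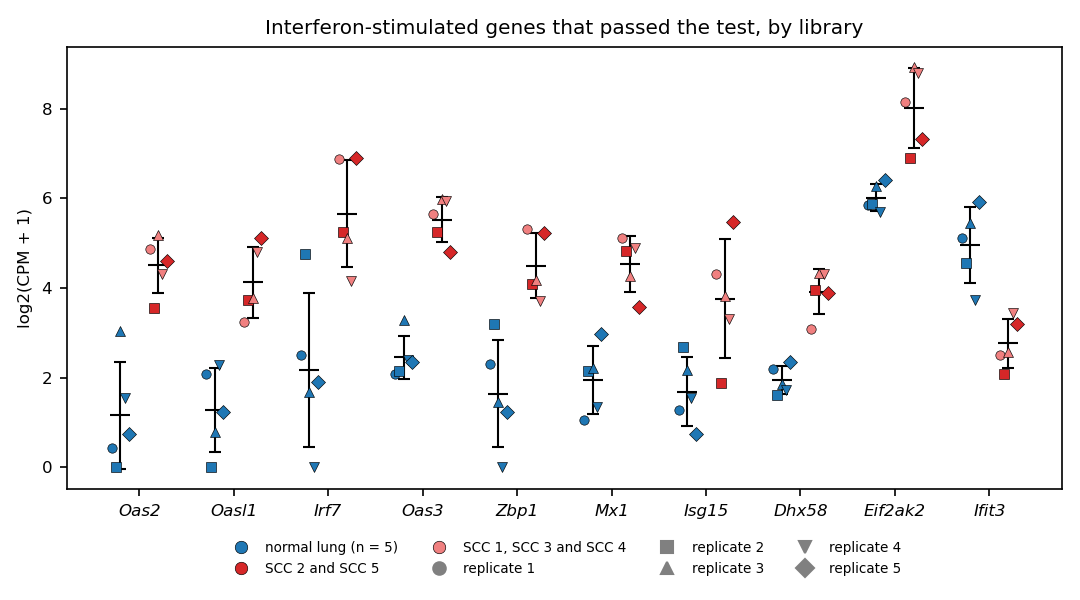
Level on the log2(CPM + 1) scale (y axis) of the 10 genes that passed the test (x axis), each point 1 library and each bar the mean with its SD over 5 libraries. In SCC 9 genes lie higher and Ifit3 lies lower, and in Eif2ak2 the dark red points of SCC 2 and SCC 5, at 119 and 159 CPM, sit below those of the other SCC libraries.

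Among the interferon-induced GTPases, Mx1 rose, Gbp2 and Gbp3 did not pass, and Mx2 had too few counts to pass the filter. Mx1 (chr16:97447035-97462907, minus strand), which blocks replication of influenza-like viruses, was at 1.07, 3.42, 3.67, 1.54 and 6.86 CPM in normal lung. It was at 33.9, 27.6, 18.2, 28.9 and 11 CPM in SCC 1 to SCC 5. All SCC libraries were above all normal ones, and SCC 5 was the lowest of them. Mx1 had a log2 fold change of 2.73 (SE 0.73, adjusted p = 0.00783), and 2.4 (SE 0.97, adjusted p = 0.133) with SCC 2 and SCC 5 alone.

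Gbp2, a guanylate-binding protein that attacks the vacuoles of intracellular pathogens, was at 127, 61.5, 59, 19.7 and 22 CPM in normal lung. It was at 68.8, 24.6, 17.6, 19.9 and 70.6 CPM in SCC 1 to SCC 5. Both groups held low and high libraries, and the log2 fold change was -0.59 (SE 0.51, adjusted p = 0.464). Gbp3 ranged from 6.17 to 38.6 CPM in normal lung and from 3.25 to 20.7 CPM in SCC (log2 fold change -0.6, adjusted p = 0.565). Mx2, which the annotation lists as a polymorphic pseudogene, had 1 to 24 counts in each library, and with no filter its log2 fold change was 0.87 (SE 1.14, adjusted p = 0.565).

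The IFIT proteins bind foreign RNA ends and block their translation, and of their 3 genes 1 was lower in SCC and 2 did not pass. Ifit3 (chr19:34583531-34588731, plus strand) was at 33.6, 22.6, 42.8, 12.3 and 59.7 CPM in normal lung and at 4.71, 3.25, 4.95, 9.96 and 8.17 CPM in SCC 1 to SCC 5. It was the only one of the 34 genes with every SCC library below every normal library. Ifit3 fell by 2.57 on the log2 scale (SE 0.6, adjusted p = 0.00284), and by 2.67 (SE 0.81, adjusted p = 0.0392) with SCC 2 and SCC 5 alone. Estimated background made up 50.5% of the Ifit3 counts in SCC, and 94.4% of those in SCC 1, SCC 3 and SCC 4.

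The call of Ifit3 was lost once its near-identical neighbour was counted with it. Of the 50-base stretches of Ifit3, 51.2% also occur in Ifit3b, and the sources used here do not say how reads that match both were counted. Ifit3b was at 6.08, 2.73, 7.63, 8.49 and 0 CPM in normal lung and at 30.2, 3.79, 3.85, 8.96 and 1.22 CPM in SCC 1 to SCC 5. The sum of both genes was at 39.7, 25.3, 50.5, 20.8 and 59.7 CPM in normal lung and at 34.9, 7.04, 8.81, 18.9 and 9.39 CPM in SCC. SCC 1 then lay within the normal range, and the log2 fold change was -1.46 (SE 0.53, adjusted p = 0.0514).

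Ifit1 was at 31.1, 28.7, 12.6, 24.3 and 19.2 CPM in normal lung and at 30.2, 48.2, 22, 36.8 and 90.6 CPM in SCC 1 to SCC 5. SCC 2, SCC 4 and SCC 5 lay above the normal range and the other 2 within it (log2 fold change 0.89, SE 0.48, adjusted p = 0.203). Ifit2 was at 34.4, 69.7, 44.3, 55.9 and 7.55 CPM in normal lung and at 18.9, 23.3, 31.4, 17.9 and 9.39 CPM in SCC. Normal 5 was the lowest library of all, and the other 4 normal libraries lay above every SCC library. The log2 fold change of Ifit2 was -1.21 (SE 0.52, adjusted p = 0.103), and without normal 5 it was -1.71 (adjusted p = 0.0102).

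None of the 3 membrane restriction factors passed. Ifitm3 was at 164, 163, 156, 108 and 110 CPM in normal lung and at 104, 167, 77.1, 53.8 and 263 CPM in SCC 1 to SCC 5. SCC 1, SCC 3 and SCC 4 lay below every normal library, and SCC 2 and SCC 5 above. The log2 fold change of Ifitm3 was -0.16 (SE 0.4, adjusted p = 0.827) with all libraries, 0.52 (adjusted p = 0.417) in SCC 2 and SCC 5 on their own and -1.2 (adjusted p = 0.00416) with SCC 1, SCC 3 and SCC 4 alone. Ifitm1, a relative found at the cell surface, was at 14, 14.4, 14.2, 6.56 and 40.5 CPM in normal lung and at 60.3, 38.2, 28.6, 20.9 and 97.2 CPM in SCC. SCC 1 and SCC 5 exceeded every normal library, normal 5 exceeded the 3 others, and the log2 fold change was 1.38 (SE 0.54, adjusted p = 0.0687).

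Bst2, or tetherin, which holds budding virus particles at the cell surface, was at 10.7, 25.3, 9.09, 3.86 and 15.1 CPM in normal lung. It was at 0, 0.271, 7.16, 7.97 and 6.53 CPM in SCC 1 to SCC 5. SCC 1 and SCC 2 had 0 and 1 counts, where 3 counts would be 2.83 and 0.813 CPM, and the other SCC libraries lay within the normal range. Bst2 had a log2 fold change of -1.63 (SE 0.91, adjusted p = 0.222).

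Viperin (Rsad2), which makes a chain-terminating nucleotide, and Cmpk2, the neighbouring nucleotide kinase, did not pass. Rsad2 ranged from 5.37 to 20.7 CPM in normal lung and from 7.54 to 27.9 CPM in SCC (log2 fold change 0.36, SE 0.64, adjusted p = 0.75). Cmpk2 was at 9.31, 15.7, 2.79, 3.86 and 50.1 CPM in normal lung and at 10.4, 5.42, 9.36, 9.96 and 3.27 CPM in SCC. Normal 5 stood far above the other 9 libraries, estimated background was 78.5% of the SCC counts, and the log2 fold change was -1.24 (SE 0.79, adjusted p = 0.297). The ADP-ribosyltransferases Parp9 and Parp14 had log2 fold changes of 0.12 (adjusted p = 0.893) and -0.32 (adjusted p = 0.561). Parp14 ranged from 87.5 to 129 CPM in normal lung and from 65.7 to 124 CPM in SCC. Parp9 ranged from 16.2 to 33.6 CPM and from 16.9 to 56.3 CPM, and its exons overlap those of Dtx3l on the opposite strand.

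Of the 5 remaining genes none passed. Ddx60, a helicase that promotes signalling by RIG-I, was at 6.44, 4.1, 12.9, 2.31 and 14.4 CPM in normal lung and at 17, 15.2, 24.8, 22.9 and 54.3 CPM in SCC 1 to SCC 5. All SCC libraries were above all normal ones, and the log2 fold change was 1.67 (SE 0.65, adjusted p = 0.0685). Estimated background was 35.3% of the Ddx60 counts in SCC, and 90.4% of those in SCC 1, SCC 3 and SCC 4. Rtp4, a chaperone of receptors at the Golgi, was at 10.4, 42.4, 9.53, 6.94 and 6.86 CPM in normal lung and at 14.1, 26, 27, 28.9 and 35.5 CPM in SCC. Normal 2 was the highest of the 10 libraries and the other 4 normal libraries lay below every SCC library (log2 fold change 0.69, SE 0.6, adjusted p = 0.464).

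Ifi35, which binds the protein Nmi, was at 7.16, 11.6, 13.3, 10.8 and 11.7 CPM in normal lung and at 5.66, 4.6, 8.26, 6.97 and 50.6 CPM in SCC 1 to SCC 5. SCC 5 was the highest library and SCC 1, SCC 2 and SCC 4 lay below every normal one. The log2 fold change of Ifi35 was 0.44 (SE 0.73, adjusted p = 0.727), and -0.96 without SCC 5. Ifi44 ranged from 3.37 to 22 CPM in normal lung and from 10.8 to 27.5 CPM in SCC (log2 fold change 0.41, adjusted p = 0.699). Xaf1, a partner of the apoptosis inhibitor Xiap, ranged from 10.4 to 97.4 CPM and from 13 to 76.8 CPM (log2 fold change -0.02, adjusted p = 0.987).

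**Figure D3:**
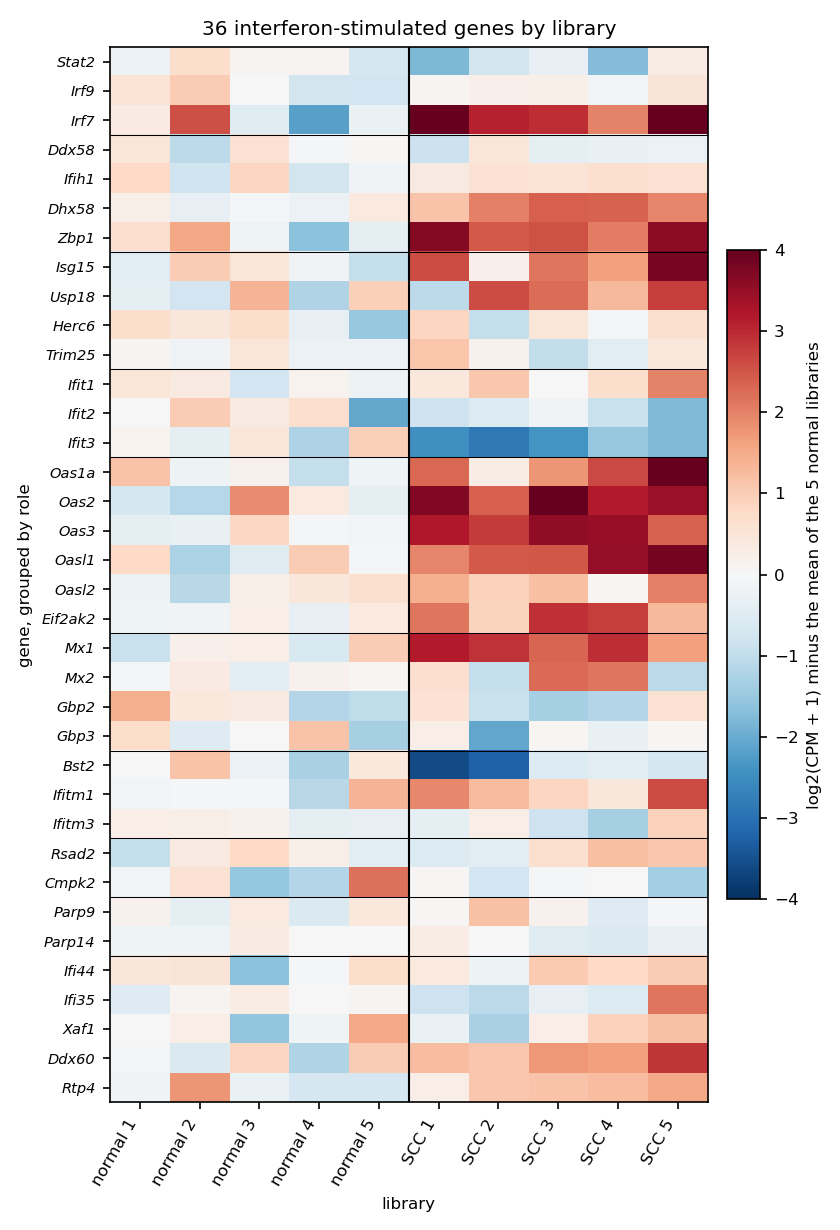
Level of the 36 genes (y axis, grouped by role) in the 10 libraries (x axis), as log2(CPM + 1) minus the mean of the 5 normal libraries, with colours limited to 4 in either direction. Red rows in all SCC columns include Irf7, Dhx58, Zbp1, Oas2, Oas3, Oasl1, Eif2ak2 and Mx1, the Ifit3 row is blue, and the SCC 5 column holds the most red. Other rows, among them Ddx60, Oas1a, Ifitm1 and Rtp4, also lie above the normal mean in all SCC columns, some of them slightly. On another scale, log2 CPM with TMM scaling and a prior count of 2, 26 of 34 tested genes lay above the normal mean in SCC 5.

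Across libraries, SCC 5 stood apart for these genes, and also for markers of squamous and basal cells (5230 CPM in sum, against 721 to 1740 CPM in the other SCC libraries). Markers of mesenchymal cells were mixed. Their sum was the highest of the SCC libraries in SCC 5 (858 against 217 to 551 CPM), through Col1a1 (435 CPM) and Col3a1 (373 CPM). Pdgfra (45.3 CPM) and Inmt (4.49 CPM), of the same list, were lower in SCC 5 than in any other library. The part of these cells in the levels of the 36 genes was not tested. The median difference of the 34 tested genes from their mean in normal lung was -0.24, 0.09, -0.14, -0.15 and 0.93 on the log2 scale in SCC 1 to SCC 5, and it ran from -0.2 to 0.26 in the normal libraries. In SCC 5, 26 of the 34 genes lay above the normal mean, against 14 to 17 in the other SCC libraries and 13 to 22 in the normal ones. Neither measure was computed over all genes, so whether this trait of SCC 5 is particular to these genes was not tested. SCC 5 was the highest of the 10 libraries for 11 of the 36 genes. The genes that rose in SCC did not share one leading library: SCC 3 was the highest SCC library for 4 of the 9, SCC 5 for 3 and SCC 1 for 2. Summed over the 36 genes, levels were 1091, 1067, 1111, 793.5 and 985.8 CPM in normal lung and 1596, 1185, 1477, 1351 and 1922 CPM in SCC. Without Eif2ak2 the sums were 743 to 1034 CPM in normal lung and 1314, 1066, 989.7, 908.3 and 1763 CPM in SCC 1 to SCC 5, so that SCC 3 and SCC 4 lay within the normal range.

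With only SCC 2 and SCC 5 set against normal lung, 2 of the 34 genes were higher (Oasl1 and Oas3, where 4.14% of all genes tested were higher) and 1 was lower (Ifit3, where 5.16% were lower). Their median log2 fold change was 0.51. With SCC 1, SCC 3 and SCC 4 alone, 7 were higher (24.7% of all genes tested) and 3 were lower (18.9%): Stat2, Ifitm3 and Ifit3. The median was then -0.01. With the receptor signal as a covariate no gene of the 34 passed edgeR's test in either direction, where 3.54% of all genes were higher and 2.87% lower. In that fit 12 of the 34 had an unadjusted p under 0.05, a threshold at which the share of all genes was not computed. Receptor signal did not overlap between the groups, at most 0.208 CPM per kb in normal lung and at least 0.416 in SCC. The covariate and the group therefore cannot be fully told apart in the fit with the covariate. The SE rose in it, and the median log2 fold change of the 34 genes was 0.75. The log2 fold change fell to 0.29 (SE 0.67) for Eif2ak2 and to 1.35 (SE 1.22) for Mx1. It was 2.86 (SE 1.36) for Irf7, 2.87 (SE 1.34) for Zbp1, 2.43 (SE 1.03) for Oas3 and 2.01 (SE 1.39) for Dhx58. It was 3.6 (SE 1.41) for Isg15, 3.95 (SE 1.8) for Oas2, 4.47 (SE 1.53) for Oasl1 and -2.92 (SE 1.08) for Ifit3. Of the counts in SCC, estimated background by transcript length made up between 2.84% (Eif2ak2) and 30.6% (Oas2) for the 9 genes that were higher. Its share was larger in SCC 1, SCC 3 and SCC 4, from 3.44% (Eif2ak2) to 50.5% (Dhx58). In these libraries it was 48% for Oasl1, 45.5% for Oas2, 44.8% for Mx1 and 30.7% for Zbp1. It was 27% there for Oas3, 18.5% for Isg15 and 12.4% for Irf7. After a background by coding length was subtracted, 7 genes were higher (9.81% of all genes tested) and Ifit3 was lower (7.55%) among 32 genes tested. After subtraction by transcript length, Zbp1, Mx1, Eif2ak2, Oas3 and Irf7 were higher and Ifit3 lower among 31 genes tested, where 8.24% and 6.82% of all genes tested were called.

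Counts on the genes for the interferons themselves were few. The 21 ligand genes, which include the interferon alpha cluster, Ifnb1, the interferon lambda genes and Ifng, together had 0, 3, 6, 13 and 2 counts in normal 1 to normal 5. They had 114, 59, 135, 68 and 17 counts in SCC 1 to SCC 5, and with all 10 libraries no ligand gene had enough counts to pass the filter. Summed levels were 0, 2.05, 0.88, 5.01 and 1.37 CPM in normal lung, where the count of 0 in normal 1 allows up to 1.07 CPM, and 107, 16, 74.3, 67.7 and 6.94 CPM in SCC. The estimated background on the same genes was 52.1, 9.56, 52.9, 56.3 and 6.66 CPM in SCC 1 to SCC 5. Measured sums and estimated background were thus both high in SCC 1, SCC 3 and SCC 4, and the part of background in the sums was not tested further. Ifnb1, chosen after its values were seen, had 0 counts in the 5 normal libraries and 3.77, 1.35, 5.5, 0.996 and 0 CPM in SCC, of which background made up 60.7%. Ifnz, the interferon zeta gene, likewise chosen after its values were seen, had 2 counts in the normal libraries and 82 in SCC, of which background made up 28.9%. It was at 33, 2.71, 13.2, 12.9 and 0 CPM in SCC 1 to SCC 5. SCC 1, SCC 3 and SCC 4 held 72 of the Ifnz counts, against 2 in normal lung. In the fit with these SCC libraries alone, Ifnz passed the filter only through the group where it was high. Its test in that fit is therefore not used as support. With no filter all 21 ligand genes were tested and 9 were higher, in a fit where 23.9% of all 22919 genes were higher. The interferon alpha genes resemble each other closely, and reads could be split between them.

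**Figure D4:**
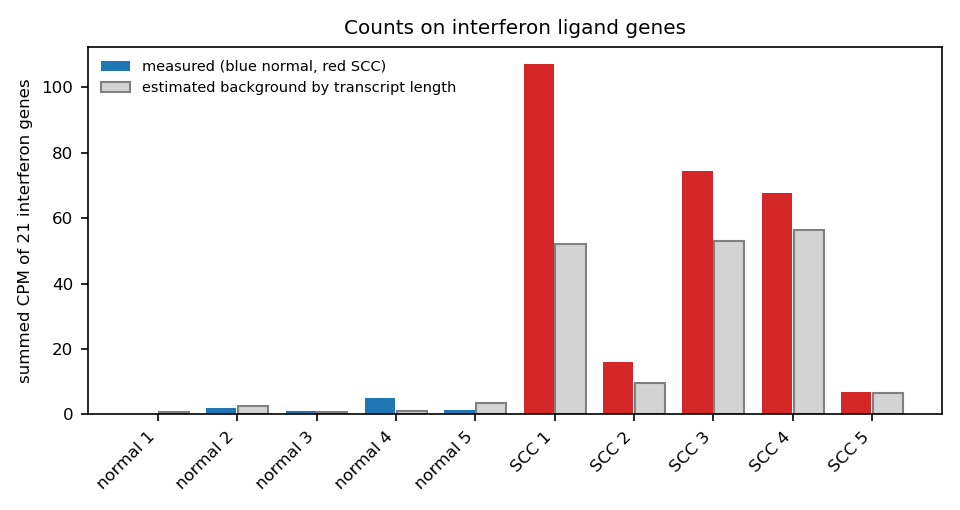
Summed CPM of the 21 interferon ligand genes (y axis) in each library (x axis), as measured (blue normal, red SCC) and as the background estimated from receptor signal and transcript length (grey). Normal libraries reach at most 5.01 CPM, and in SCC the measured sums of 6.94 to 107 CPM stand beside background estimates of 6.66 to 56.3 CPM.

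Other genes of the pathway were taken from lists that were likewise chosen with earlier results of these data known. They are to be read beside the 12.5% of all genes tested that were higher, the 8.68% that were lower and the median of 0.07 over all genes tested. Of the 6 interferon receptor genes, 1 was higher, 1 was lower and 4 did not pass, with a median log2 fold change of 0.37. Ifnar1 was at 84.5, 104, 125, 118 and 39.8 CPM in normal lung and at 305, 107, 366, 352 and 107 CPM in SCC 1 to SCC 5. Only SCC 1, SCC 3 and SCC 4 exceeded the normal range. The log2 fold change of Ifnar1 was 1.26 (SE 0.42, adjusted p = 0.0328), and 0.05 (adjusted p = 0.964) with SCC 2 and SCC 5 alone. Its partner chain Ifnar2 was at 56.6, 64.9, 72.5, 99.5 and 40.5 CPM in normal lung and at 8.48, 16.3, 30.3, 30.9 and 28.2 CPM in SCC, all below the normal range. Ifnar2 fell by 1.66 on the log2 scale (SE 0.44, adjusted p = 0.00755), and by 1.71 (adjusted p = 0.0501) with SCC 2 and SCC 5 alone. None of the kinases Jak1, Jak2 and Tyk2 passed, and Jak1 had the smallest p, with a log2 fold change of -1.07 (SE 0.41, adjusted p = 0.0613).

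Of 14 tested genes of nucleic acid sensing and its adaptors outside the 36, 2 were higher and none lower (median 0.54). Aim2, a sensor of cytoplasmic DNA that forms inflammasomes, was at 16.1, 30.8, 12.5, 6.56 and 7.55 CPM in normal lung and at 97.1, 61.8, 269, 203 and 50.2 CPM in SCC 1 to SCC 5, with no overlap. Its log2 fold change was 3.1 (SE 0.51, adjusted p = 8.95e-05), and 1.81 (adjusted p = 0.0799) with SCC 2 and SCC 5 alone. Mb21d1, which encodes the DNA sensor cGAS, had a log2 fold change of 2.12 (SE 0.72, adjusted p = 0.0362), and one of 0.59 (adjusted p = 0.81) with SCC 2 and SCC 5 alone. Of 11 negative regulators, Socs1 was higher (3.07, SE 0.99, adjusted p = 0.0266), and with SCC 2 and SCC 5 alone it was at 2.07 (adjusted p = 0.417). Pias1 was lower (-1.42, SE 0.42, adjusted p = 0.0172), and it was at -1.4 (adjusted p = 0.116) in SCC 2 and SCC 5 on their own.

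Of 39 tested further genes of the type I response, 4 were higher and 4 lower, with a median log2 fold change of -0.1. Ifit1bl1, a relative of Ifit1, was at 1.07, 1.37, 10.6, 0 and 0 CPM in normal lung and at 162, 39, 36.9, 43.8 and 69.8 CPM in SCC 1 to SCC 5, with no overlap. Its log2 fold change was 4.41 (SE 0.77, adjusted p = 0.000168), and 4.1 (adjusted p = 0.0133) with SCC 2 and SCC 5 alone. Sp110, a nuclear body protein, was higher (1.78, SE 0.4, adjusted p = 0.0019, but 0.86 in SCC 2 and SCC 5 on their own, where the adjusted p was 0.251), and Gbp7 was lower (-1.8, SE 0.46, adjusted p = 0.00584, and -1.66 in those 2 libraries, where the adjusted p was 0.0968). The others, named after their values were seen, were Slfn9 (2.1) and Ube2l6 (1.4), which were higher, and Slfn5 (-1.15), Lgals9 (-1.28) and B2m (-1.21), which were lower. From SCC 2 and SCC 5 alone, Slfn9 was at 1.37 (adjusted p = 0.357), Ube2l6 at 0.67 (adjusted p = 0.459), Lgals9 at -0.8 (adjusted p = 0.368) and B2m at -0.82 (adjusted p = 0.154), and Slfn5 passed at -1.72 (adjusted p = 0.00412). Of 24 tested genes that respond chiefly to interferon gamma, 1 was higher and 6 were lower, with a median of -0.94. The 3 of smallest p belong to antigen presentation by class II molecules: the log2 fold change was -2.34 for H2-Aa, -2.32 for Cd74 and -1.92 for H2-Ab1 (SE 0.38, 0.42 and 0.38, adjusted p = 6.72e-05, 0.000239 and 0.000635), and the groups did not overlap for any of them. The gene that was higher, named after its values were seen, was the chemokine Cxcl9 (2.1, SE 0.7, adjusted p = 0.0318, but 0.41 in SCC 2 and SCC 5 on their own, where the adjusted p was 0.875).

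Markers of immune cells were read beside these results. Of 4 leukocyte genes, none was higher and Ptprc and Laptm5 were lower in SCC, at summed levels of 208 to 477 CPM in normal lung and 59.4 to 230 CPM in SCC. Ptprc, which encodes CD45, fell by 1.53 on the log2 scale (SE 0.36, adjusted p = 0.00295). Of 5 tested macrophage and monocyte genes, Lyz2 and Csf1r were lower (924 to 1290 and 426 to 704 CPM in sum). Cd68 (log2 fold change 0.55), Itgam (0.07) and Adgre1 (-0.41) did not pass. Of 3 tested genes of plasmacytoid dendritic cells Tcf4 and Siglech were lower (294 to 428 and 187 to 300 CPM), and Runx2 (0.78, adjusted p = 0.148) did not pass. The untested Marco, Ly6c2, Ccr9 and Cd300c had higher means in SCC. Estimated background was 25.8%, 57.9%, 75.2% and 49.3% of their SCC counts, respectively. Siglech, a receptor of plasmacytoid dendritic cells, fell by 1.42 (SE 0.42, adjusted p = 0.0165). In the fit with SCC 2 and SCC 5 alone, Ptprc (-1.34, adjusted p = 0.0324), Lyz2 (-1.17, adjusted p = 0.018) and Tcf4 (-1.48, adjusted p = 0.00864) were still lower. Laptm5 (-0.81, adjusted p = 0.395), Csf1r (-1.03, adjusted p = 0.231) and Siglech (-1.2, adjusted p = 0.156) did not pass in that fit. None of 4 tested T and NK cell genes passed, at 60.6 to 160 CPM in normal lung and 36.3 to 214 CPM in SCC. Of 4 B and plasma cell genes, Jchain was higher (1.52, SE 0.5, adjusted p = 0.0297), and it was at 2.1 (adjusted p = 0.0105) with SCC 2 and SCC 5 alone. The summed leukocyte level was 59.4, 230, 162, 119 and 108 CPM in SCC 1 to SCC 5. No marker in these lists was at 0 in every library, and the part of these cells in the results on the 36 genes was not tested.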

How the data were processed

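The authors deposited 1 table of whole-number read counts per gene symbol, with 1 column per library and no normalization. The submitters' processing notes name the build mm10 and the tools DESeq2, HTSeq 0.6.1, TopHat2 2.0.1 and cutadapt 1.9.1. Which annotation and strand setting were used, and how reads with several matches were handled, is not said in the sources used here.

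Groups were taken from the labels, 5 libraries of normal lung and 5 of SCC. Counts were tested in R 4.3.3 with edgeR 4.0.16 over the whole table: genes of low count were dropped by filterByExpr with the groups, libraries were scaled by TMM, and SCC was set against normal lung with the robust quasi-likelihood test and no covariate. P-values were adjusted by Benjamini-Hochberg over all genes tested, and a gene was called at an adjusted p under 0.05. The SE of a log2 fold change was taken as the fold change over the square root of the F statistic. CPM are counts scaled to the total of each library in the table. No label mentions molecular identifiers, so floors of 3 counts cover counting error only.

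Lengths, positions and shared 50-base stretches were read from GENCODE release M21 on GRCm38, which is mm10. It matched 24063 genes, 687 of them through an older symbol. The receptor signal is the CPM per kb of coding length over 1463 chemosensory receptor genes, each capped at the 98th percentile of its library. The motif was matched by its letters in RefSeq promoter windows.

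The genes and lists were chosen with earlier results of these data known. Values per library are given for the genes called with all libraries or with SCC 2 and SCC 5 alone, for the 12 further tested genes of smallest p and for the gene of highest level per kb. Ifi35, Oas1a and genes near-identical to others were added after their values were seen. From other lists at most the 3 called genes of smallest p are named, or else the 1 gene of smallest p, and from marker lists at most 2. The mesenchymal markers and the remaining markers of macrophages and of plasmacytoid dendritic cells were added after their values were seen. Some genes of the pathway lists are not reported here.

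Alternatives were scaling by upper-quartile or by DESeq2 size factors, a filter of 1 CPM in 5 libraries or none, limma-voom (limma 3.58.1) with sample quality weights, the Wald test of DESeq2 1.42.0, no robust estimation, subsets of the SCC libraries, background subtraction by coding length, the receptor signal as a covariate and leaving out each library in turn. Subtraction by transcript length and the summing of near-identical genes (Ifit3 with Ifit3b, Oas1a with Oas1g) were chosen after seeing the data.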

Additional observations from a re-analysis of the deposited data

Results flagged for a closer look

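In each group of 5 libraries, a level was picked out when the gap between the highest or lowest library and its nearest neighbour took up more of the range than Dixon's 95% limit allows, which chance alone exceeds in about 1 in 20 groups. Of 68 groups (34 genes in 2 groups each), 5 exceeded it on the log2 CPM scale with a prior count of 2, and 6 with a prior count of 0.5. Dhx58 was low in SCC 1, at 7.54 CPM, where the other SCC libraries were at 13.9 to 19.3 CPM. Ifi35 was high in SCC 5, at 50.6 CPM against 4.60 to 8.26 CPM in the other SCC libraries, and low in normal 1, at 7.16 CPM against 10.8 to 13.3 CPM. Ddx60 was high in SCC 5, at 54.3 CPM against 15.2 to 24.8 CPM in the other SCC libraries. Rtp4 was high in normal 2, at 42.4 CPM against 6.86 to 10.4 CPM in the other normal libraries.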

How the results depend on the processing

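No paired analysis was possible because the labels give each library its own code, with no replicate number or animal shared between the groups. Of 34 genes, 9 were higher in SCC and 1 was lower. The count of higher genes was 9 to 12 under other scalings, filters and tests, 7 with background subtracted by coding length, 5 by transcript length, 2 with SCC 2 and SCC 5 alone, 7 with SCC 1, SCC 3 and SCC 4 alone, 0 with the receptor signal as a covariate, and 8 to 10 with any 1 library left out. Of the 9 genes first called, 8 were still higher with no filter and 7 to 9 with any 1 library left out, the rest of those counts being Oas1a and Ifitm1. Of all genes tested, 12.5% to 24.7% were higher under other scalings, filters and tests, and 9.49% to 14.8% with any 1 library left out. The count of lower genes was 2 with no filter, 4 with limma-voom, 3 with SCC 1, SCC 3 and SCC 4 alone, 0 with the covariate, 0 with near-identical genes summed, and 1 to 2 with any 1 library left out. With any 1 library left out, 7.35% to 10.9% of all genes tested were lower. The median log2 fold change was 0.076 with no filter (0.71 over all genes), 0.43 with the filter of 1 CPM (0.37 over all genes), -0.011 with SCC 1, SCC 3 and SCC 4 alone and 0.14 to 0.57 with any 1 library left out. Upper-quartile scaling moved the median of all genes from 0.07 to 0.27 and that of the 34 genes from 0.38 to 0.55. The fits with few SCC libraries have fewer samples. The cause of the other changes was not tested.

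The 10 genes that were called kept their sign in every alternative in which they could be tested. Signs turned only in genes that were not called, as follows in log2 fold change. Irf9 was at 0.0153 and Xaf1 at 0.0573 with DESeq2 size factors, at 0.11 and 0.18 with upper-quartile factors, and at 0.0175 and 0.0527 with DESeq2's test. With no filter, Ifih1 was at -0.11, Herc6 at -0.41, Trim25 at -0.28, Rsad2 at -0.0598 and Parp9 at -0.21, and with the filter of 1 CPM Herc6 was at -0.0733. With limma-voom, Herc6 was at -0.0524, Trim25 at -0.62, Cmpk2 at 0.23, Parp9 at -0.16, Ifi35 at -0.46 and Xaf1 at 0.50. With SCC 2 and SCC 5 alone, Irf9 was at 0.0942, Herc6 at -0.25, Ifitm3 at 0.52 and Xaf1 at 0.031. With SCC 1, SCC 3 and SCC 4 alone, Ifih1 was at -0.00669, Herc6 at -0.0775, Trim25 at -0.22, Ifit1 at -0.0154, Parp9 at -0.48 and Ifi35 at -1.0. With background subtracted by coding length, Irf9 was at 0.0263, Herc6 at -0.11 and Xaf1 at 0.16, and by transcript length Irf9 was at 0.0451, Herc6 at -0.25, Ifitm3 at 0.13 and Xaf1 at 0.22. With the covariate, Stat2 was at 0.097, Irf9 at 0.18, Ddx58 at 0.72, Gbp2 at 0.77, Ifitm3 at 1.27 and Ifi44 at -0.29. With any 1 library left out, Herc6 ran from -0.45 to 0.22, Trim25 from -0.26 to 0.19, Rsad2 from -0.00854 to 0.53, Parp9 from -0.23 to 0.18, Irf9 from -0.42 to 0.0838, Ifih1 from -0.0942 to 0.46, Xaf1 from -0.40 to 0.36 and Ifi35 from -0.96 to 0.67.

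Depth limits Oas1a and Mx2, which were tested only where a filter or the set of libraries let them pass, and Bst2. It also limits the 8 genes called higher other than Eif2ak2, each of which had under 10 counts in at least 1 normal library.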

Other observations

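Some genes of the response, picked out after their values were seen and for this division of the SCC libraries, are given together here. Eif2ak2, Ifnar1, Aim2, Sp110, Ube2l6, Mb21d1 and Cxcl9 were each higher in SCC 1, SCC 3 and SCC 4 than in both SCC 2 and SCC 5. Ube2l6, the enzyme that passes Isg15 to its ligases, was at 203, 67.7, 118, 162 and 83.3 CPM in SCC 1 to SCC 5 and at 19.1 to 58.0 CPM in normal lung. Sp110 was at 253, 105, 290, 268 and 110 CPM in SCC 1 to SCC 5 and at 31.5 to 71.8 CPM in normal lung. The estimated background in SCC 1, SCC 3 and SCC 4 amounted to 3.44% of the counts of Eif2ak2, 3.79% of Ifnar1, 4.63% of Aim2, 2.35% of Sp110, 3.42% of Ube2l6, 29.4% of Mb21d1 and 27.8% of Cxcl9.

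In SCC 1, Ifit3b had 30.2 CPM and Ifit3 had 4.71 CPM, whereas in normal 5 Ifit3b had 0 and Ifit3 had 59.7 CPM. In SCC 2, Ifit3b and Ifit3 were nearly equal, at 3.79 and 3.25 CPM.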
